A study of Triticum aestivum with 23 samples.

Results

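In above-ground tissue of wheat seedlings, 156 genes were close to silent in 5 genotypes and were transcribed in the severe dwarf *tabri1-a.1bd*. They were chosen from 106914 high-confidence gene models by their transcript levels. A gene was kept if its mean was under 2 TPM (transcript abundance, a read count scaled by gene length and library total) in each of the 5 other genotypes and if it reached at least 10 TPM in all 3 libraries of *tabri1-a.1bd*. Its mean in the moderate dwarf *tabri1-a.2bd* also had to lie within 1.5-fold of the mean in the null segregant after 0.5 TPM was added to both. Genes of the brassinosteroid (BR) pathway list were left out beforehand, and 0 of its 76 genes met the rest of the conditions. Of 64245 genes that were low in the 5 other genotypes, 228 were on in *tabri1-a.1bd*. The condition on *tabri1-a.2bd* left out 72 of these, of which 49 were higher and 23 lower in *tabri1-a.2bd* than in the null segregant.

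The series held 23 libraries of 6 genotypes, with 3 libraries of *tabri1-a.1bd*, for which tissue was limiting, and 4 of each of the others, namely *tabri1-a.2bd*, the milder *tabri1-a.3bd*, the double mutant *tabri1-bd*, Cadenza and *TaBRI1-NS*. Cadenza is the parent cultivar, and *TaBRI1-NS* is a null segregant of the backcrossed mutant population, with functional alleles of *TaBRI1*. The b and d alleles, present in all 4 mutants, carry premature stop codons, as does the a.1 allele. The a.2 and a.3 alleles carry amino acid substitutions and come from mutagenised *tabri1-bd* plants. Whole shoots at leaf stage 2, grown at a constant 21 °C and 24 h light, were pooled over several seedlings per replicate, so each library is an average over organs and plants. In such tissue a change in the share of a cell type and a change in RNA per cell cannot be told apart.

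BRs are plant steroid hormones that promote cell elongation and division. BRI1 is their receptor at the cell surface. When BRI1 binds the hormone, a phosphorylation cascade leads to active BZR transcription factors, which alter many genes and repress the genes of BR synthesis. Bread wheat is hexaploid, with A, B and D subgenomes, so most genes, *BRI1* included, occur as 3 homoeologues on chromosomes of the same number. The a.1 allele takes out the last intact copy, whereas *tabri1-bd* keeps an intact A copy. A TPM value does not show which allele a transcript carries. The level of *TaBRI1-A* was 4.68 to 7.48 TPM in *tabri1-a.1bd*, against 3.90 to 4.89 TPM in *TaBRI1-NS*, so the premature stop codon in the A copy was not accompanied by loss of its transcript.

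The 156 genes are described here by identifier. The table of gene names used here shares no identifier with the TPM table, for these or any other genes, and 0 of the 156 were in the functional term lists of the study, so neither names nor functions are given and the tissue or cell type they mark was not tested. The chromosome is part of each identifier in the IWGSC RefSeq v2.1 annotation. In that annotation 155 of the genes carry an identifier of the earlier release, and for 4 of these the earlier identifier named another chromosome. TraesCS6D03G0672000, the gene with the highest mean, was one of the 4.

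Replicate 1 of *tabri1-a.1bd* stood apart from replicates 2 and 3, both in the 156 genes and in the BR pathway. The 8 tested genes of *TaBR6ox1*, the enzyme of the last steps towards castasterone, lay between 0.166 and 2.11 TPM in replicate 1. In replicate 2 they lay between 3.86 and 37.7 TPM, in replicate 3 between 3.87 and 40.5 TPM, and in the *TaBRI1-NS* libraries between 0 and 1.90 TPM. All 8 were therefore lowest in replicate 1, and only their pooled range overlapped that of *TaBRI1-NS*. Replicate 1 was above every *TaBRI1-NS* library for *TaBR6ox1-A1* (2.11 against at most 0.916 TPM), *TaBR6ox1-B1* (0.166 against 0 TPM) and *TaBR6ox1-A3* (0.705 against at most 0.0455 TPM). It was below every such library for *TaBR6ox1-D1* (0.641 against at least 0.690 TPM) and *TaBR6ox1-D2* (0.347 against at least 0.993 TPM). For *TaBR6ox1-A2*, *TaBR6ox1-B2* and *TaBR6ox1-D3* it lay within their range. The 156 genes ran the other way and were mostly highest in replicate 1. The same conditions applied to replicates 2 and 3 alone selected 162 genes, which by construction include the 156. What sets replicate 1 apart was not tested. Depth was not lower in it, with 35070714 reads against 33818842 in replicate 2 and 29910934 in replicate 3 (22618157 to 38468006 over all libraries). It had the fewest genes above 0 TPM of all libraries, with 80987 against 87825 in replicate 2 and 95825 in replicate 3.

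**Figure D1:**
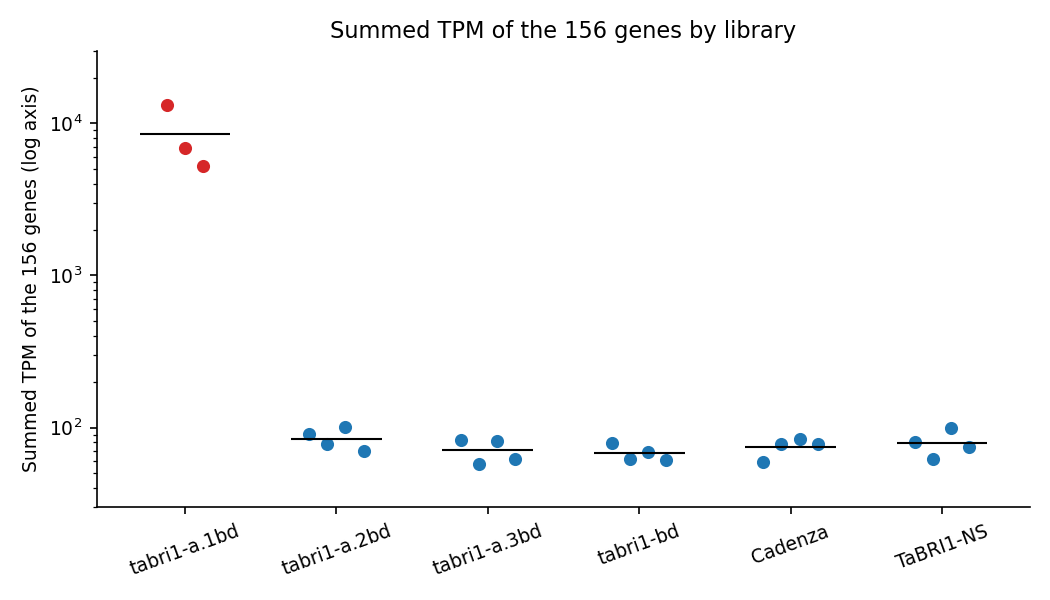
Summed TPM of the 156 genes in each library on a log axis, by genotype, with points for libraries and a line at the mean of each genotype. The 3 *tabri1-a.1bd* libraries sit between 5255 and 13217 TPM and the 20 other libraries between 57.5 and 100.7 TPM.

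Summed over the 156 genes, the transcript level was 13217, 6901 and 5255 TPM in the 3 *tabri1-a.1bd* libraries. In *tabri1-a.2bd* the sums were 91.0, 77.6, 100.7 and 70.0 TPM, and in *tabri1-a.3bd* they were 82.8, 57.5, 81.6 and 61.9 TPM. In *tabri1-bd* they were 79.2, 61.8, 69.0 and 61.2 TPM, in Cadenza 59.3, 78.4, 84.0 and 78.1 TPM, and in *TaBRI1-NS* 80.6, 62.0, 99.6 and 75.1 TPM. The average sum was 8457 ± 4203 TPM (SD, n = 3) for *tabri1-a.1bd*, against 79.3 ± 15.6 TPM (SD, n = 4) for *TaBRI1-NS*. Without replicate 1 of *tabri1-a.1bd* its average was 6078 TPM. The 5 other genotypes overlapped with each other, the gap to *tabri1-a.1bd* having been set by the way the genes were chosen. The 156 genes took 1.32%, 0.69% and 0.526% of all TPM in the *tabri1-a.1bd* libraries, and at most 0.0101% in any other library.

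These sums rest on 378248, 188075 and 127757 reads in *tabri1-a.1bd*, against 1794 to 3936 reads in each of the other libraries. A read fell on all 156 genes in every *tabri1-a.1bd* library, and on 71 to 122 of them in the others. The background level was thus low but not absent. Over the 20 other libraries together, 7 genes had no read, 15 had 1 to 10 reads and 12 had more than 1000, with a median of 107 and a maximum of 7041. In *tabri1-a.1bd* the fewest reads behind a single value were 56.

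Most of the genes were moderately transcribed in *tabri1-a.1bd*. In all 3 libraries 66 of the 156 reached 20 TPM, 21 reached 50 TPM and 6 reached 100 TPM, while the lowest library lay between 10 and 20 TPM for the other 90. The mean in *tabri1-a.1bd* ranged from 11.5 to 568 TPM, with a median of 30.4 TPM. Of the 156 genes, 123 had at least 4 reads in *TaBRI1-NS*, and for these the ratio of the mean in *tabri1-a.1bd* to that in *TaBRI1-NS* had a median of 69.8, with a range of 7.12 to 1449.7. A further 29 had no read in *TaBRI1-NS* and were at least 186-fold higher in *tabri1-a.1bd*, with the floor set at 3 reads over the 4 *TaBRI1-NS* libraries. The remaining 4 had 1 to 3 reads in *TaBRI1-NS*. These ratios follow from the choice of the genes and were not tested.

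**Figure D2:**
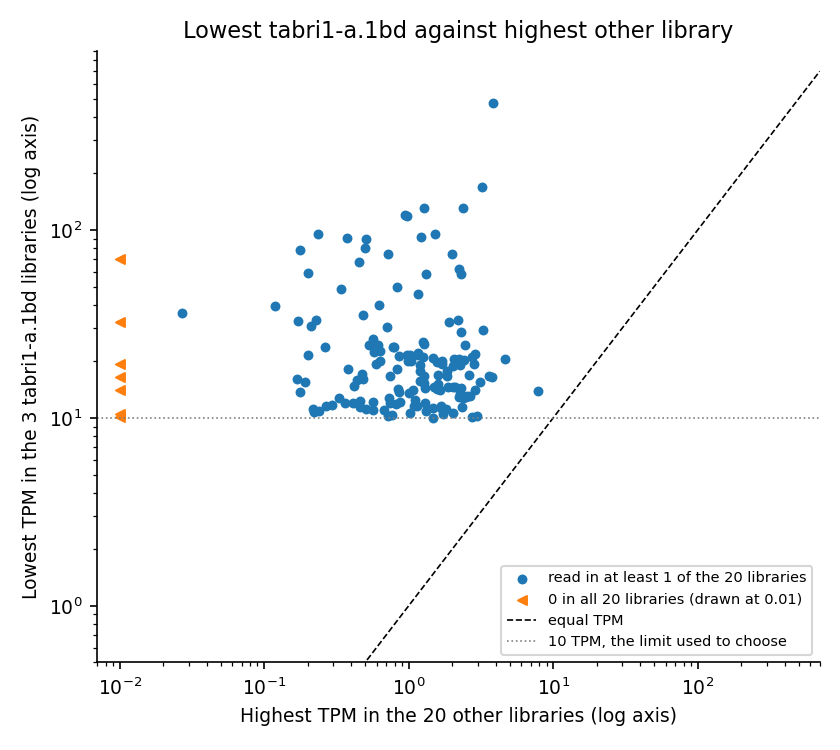
Each point is 1 of the 156 genes, with its highest TPM in the 20 other libraries on the horizontal log axis and its lowest TPM in the 3 *tabri1-a.1bd* libraries on the vertical log axis. All points lie above the line of equal TPM, the nearest being TraesCS3D03G0130200 at 13.9 against 7.92 TPM, and 7 genes are at 0 in all 20 other libraries.

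The choice limited the mean in each other genotype but not each library. Even so, the lowest *tabri1-a.1bd* library exceeded the highest of the 20 other libraries in 156 of 156 genes. Such a gap was found in 12.5% of all 62029 high-confidence genes tested, and nothing is read from the count because the same libraries chose the genes. A level above 2 TPM occurred in at least 1 other library for 37 genes and above 3 TPM for 8, whereas 73 stayed under 1 TPM in every other library.

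The highest mean and the highest minimum in *tabri1-a.1bd* belonged to TraesCS6D03G0672000, a model of 685 bp on chromosome 6D. It had 679, 549 and 476 TPM in *tabri1-a.1bd*, against 0.935, 1.46, 1.34 and 0 TPM in *TaBRI1-NS*. Its next highest value was 3.84 TPM, in replicate 3 of *tabri1-a.2bd*, and it was listed at 0 in 7 of the 20 other libraries. Among high-confidence genes it ranked 97th, 142nd and 157th in the 3 *tabri1-a.1bd* libraries. The ratio of the means was 607. This gene was also among the more even across the *tabri1-a.1bd* replicates, its highest value being 1.43 times its lowest.

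Both next genes lie on chromosome 1B and varied more between replicates. TraesCS1B03G0768700, with the highest single value of all, had 704, 322 and 170.5 TPM in *tabri1-a.1bd*, against 0, 1.16 and 3.24 TPM as the lowest, median and highest of the 20 other libraries. TraesCS1B03G0841700 had 589, 227 and 131 TPM in *tabri1-a.1bd*, against 0, 1.25 and 2.38 TPM. In both genes the libraries of *tabri1-a.1bd* differed by over 4-fold, and yet their lowest value was far above any other library.

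TraesCS5D03G0389800 (2144 bp, 5D) had 268, 206 and 131 TPM in *tabri1-a.1bd*, against 0.288, 0.576 and 1.28 TPM as the lowest, median and highest of the others. It was above 0 in every library, with 552 reads over the 20 others. TraesCS1A03G0676500 (617 bp, 1A) had 329, 210.3 and 80.3 TPM in *tabri1-a.1bd*, and was at 0 in 15 of the 20 other libraries, with a maximum of 0.497 TPM. TraesCS2D03G0229100 (1329 bp, 2D) had 269, 145 and 94.8 TPM in *tabri1-a.1bd*, against a median of 0.309 TPM and a maximum of 1.53 TPM elsewhere. A level near 0 in the other genotypes was thus reached both by genes with a steady trace of reads and by genes with almost none.

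**Figure D3:**
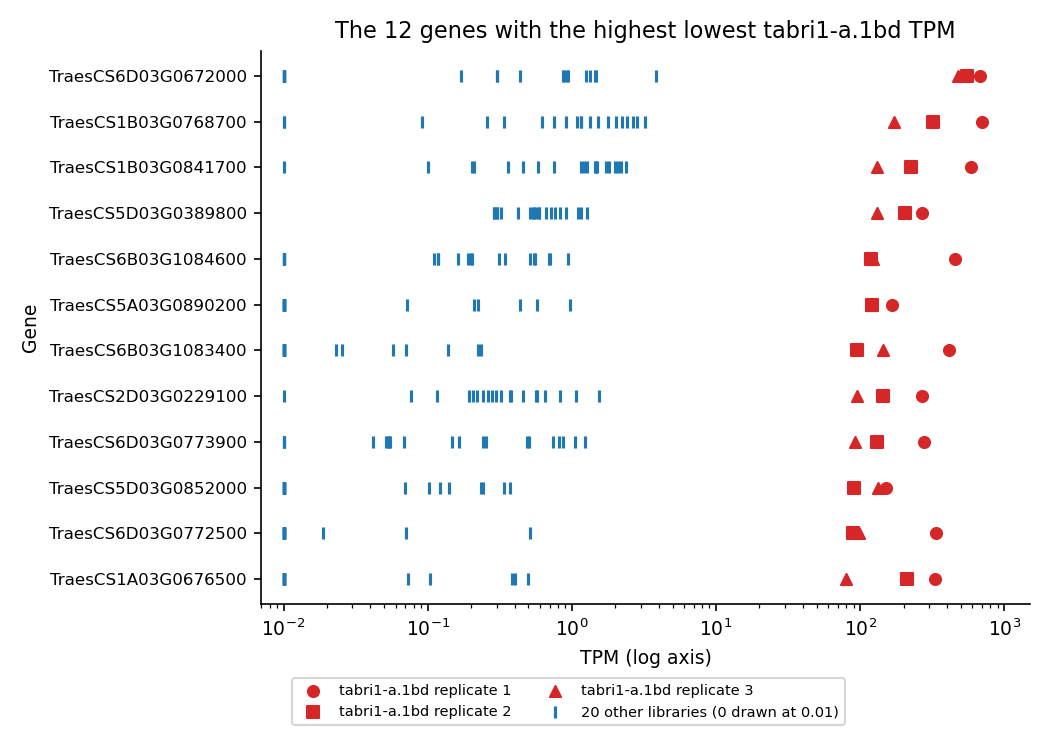
TPM on a log axis of the 12 genes with the highest minimum in *tabri1-a.1bd*, with circles, squares and triangles for its 3 replicates and bars for the 20 other libraries (0 drawn at 0.01). In the top gene, TraesCS6D03G0672000, the *tabri1-a.1bd* libraries lie between 476 and 679 TPM and the other libraries reach 3.84 TPM.

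The 7 genes with no read in the 20 other libraries reached lower levels. TraesCS5D03G0852100 was the highest of them, with 159, 70.0 and 95.2 TPM in *tabri1-a.1bd*, which is at least 2689-fold above the floor of 3 reads in *TaBRI1-NS*. TraesCS2B03G1296200 (1503 bp, 2B) had 10.2, 30.6 and 42.2 TPM in *tabri1-a.1bd*, from 362 to 1300 reads, and was one of 14 genes that were lowest in replicate 1. The reads of these 7 genes in *tabri1-a.1bd* came to at least 100 in every library.

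At the other end, the 3 genes with the highest value outside *tabri1-a.1bd* were TraesCS3D03G0130200, TraesCS1D03G0523200 and TraesCS6D03G0672000. TraesCS3D03G0130200 had 13.9, 22.2 and 39.6 TPM in *tabri1-a.1bd*, whereas its 4 *tabri1-a.3bd* libraries were at 7.92, 0, 0 and 0 TPM. This model is 170 bp long, the shortest of the 156, and had 70 reads over the 20 other libraries, so a few reads make a large TPM. TraesCS1D03G0523200 (2461 bp) had 90.3, 47.3 and 20.5 TPM in *tabri1-a.1bd*, against 2.15, 0.557, 4.68 and 0.416 TPM in *tabri1-a.3bd*. It was read in every library.

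Around the limit of 10 TPM the values ran on without a break. Just inside it were TraesCS2D03G0049300, with a lowest *tabri1-a.1bd* value of 10.03 TPM, and TraesCS2B03G1296200, with 10.2 TPM. Just outside were TraesCS7D03G1103800, at 16.3, 14.6 and 9.99 TPM in *tabri1-a.1bd*, and TraesCS3D03G0963300, at 19.4, 10.3 and 9.88 TPM. Lowering the limit to 5 TPM gave 382 genes and raising it to 20 TPM gave 66. Near the limit of 1.5-fold on *tabri1-a.2bd*, TraesCS6D03G0773900 was inside, with means of 0.769 TPM in *tabri1-a.2bd*, against 0.355 TPM in *TaBRI1-NS* (a ratio of 1.49 with 0.5 TPM added). TraesCS7B03G0170900 was outside, with means of 0.379 and 0.0775 TPM in the same order. That limit therefore separates genes by differences of well under 1 TPM.

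Because the choice needed all 3 *tabri1-a.1bd* libraries, it was repeated with 1 library held out. Chosen without replicate 1, 162 genes were on in replicates 2 and 3, and 156 of them (96.3%) reached 10 TPM in replicate 1, against 14.1% of all high-confidence genes. Chosen without replicate 2, 156 of 167 (93.4%) did so in replicate 2, against 14.6% of all high-confidence genes. Chosen without replicate 3, 156 of 231 (67.5%) reached 10 TPM in replicate 3, where 96.1% reached 5 TPM and 99.6% reached 2 TPM. The shares of all high-confidence genes in replicate 3 were 14.6%, 24.7% and 38.3% at these levels. The count of 156 is fixed by construction, being the genes that meet the full choice, and only the number chosen could vary. The shares of all high-confidence genes cover genes not chosen for being on in other libraries of the same genotype. Nothing is therefore read from the contrast. The share that reached 10 TPM in the library held out was lowest for replicate 3. With the same limits and no condition on *tabri1-a.2bd*, 228 genes were on in *tabri1-a.1bd* alone of the genotypes, 1 in Cadenza alone, and 0 in each of the other 4.

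**Figure D4:**
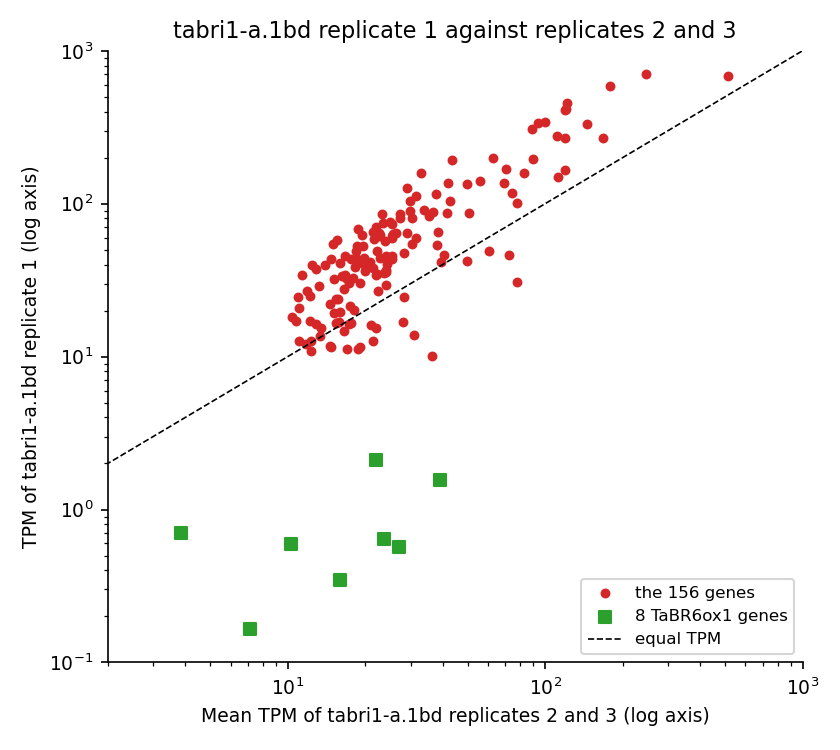
TPM of *tabri1-a.1bd* replicate 1 against the mean of replicates 2 and 3, both on log axes, for the 156 genes (circles) and the 8 tested *TaBR6ox1* genes (squares). Most of the 156 genes lie above the line of equal TPM, 127 being highest in replicate 1, and the *TaBR6ox1* genes lie below it, at no more than 2.11 TPM in replicate 1.

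Levels differed between the 3 *tabri1-a.1bd* libraries in a common order. Replicate 1 was highest in 127 of the 156 genes (81.4%), replicate 2 in 20 and replicate 3 in 9. Replicate 3 was lowest in 109. Among all 15699 high-confidence genes with a *tabri1-a.1bd* mean of at least 10 TPM, replicate 1 was highest in 48.9%, and among the 5681 other genes of that level that were called higher in *tabri1-a.1bd* it was highest in 69.1%. The median ratio of the highest to the lowest *tabri1-a.1bd* library was 2.51 in the 156 genes and 1.60 in the 15699 genes. After TPM were rescaled by size factors, replicate 1 was highest in 134 of the 156. An estimate of any gene's mean in *tabri1-a.1bd* thus depends on a library in which every tested *TaBR6ox1* gene was lower than in replicates 2 and 3.

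Single genes differed in how far apart the *tabri1-a.1bd* libraries lay. TraesCS6D03G0830000 had the widest spread, with 194, 67.1 and 19.9 TPM in *tabri1-a.1bd*, followed by TraesCS1B03G0542400 (115, 61.5 and 13.6 TPM) and TraesCS4B03G0128400 (86.0, 36.5 and 10.2 TPM). TraesCS4D03G0623900 was nearly level, at 16.7, 17.8 and 17.4 TPM, as were TraesCS3B03G1493000 (12.7, 11.96 and 12.8 TPM) and TraesCS3A03G0224800 (12.02, 12.4 and 11.1 TPM). In these 3 even genes the highest library in the 5 other genotypes did not exceed 1.28 TPM. The ratio of highest to lowest *tabri1-a.1bd* library was under 1.5 in 22 genes and 3 or more in 60.

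**Figure D5:**
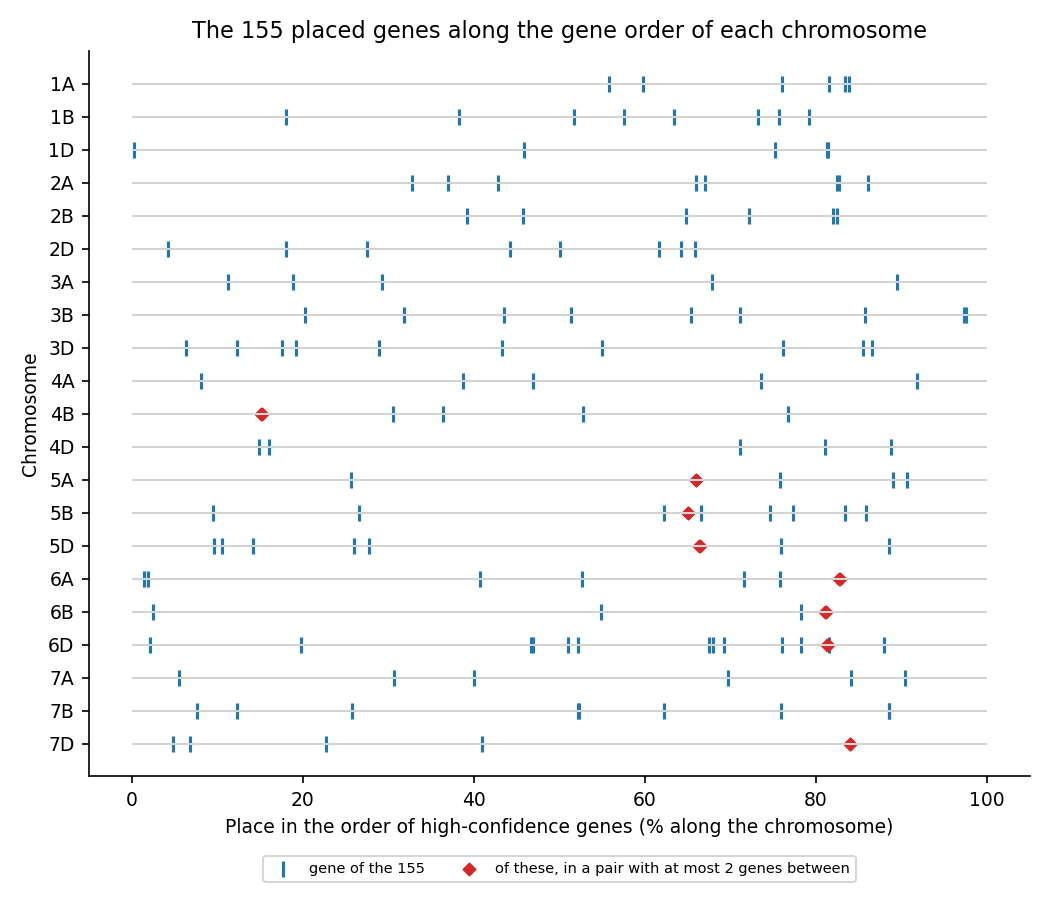
Place of the 155 genes assigned to a chromosome along the order of high-confidence genes, from 0 to 100%, with 1 line per chromosome. Diamonds mark the 16 genes in pairs with at most 2 other genes between them. Of these, 12 fall at 65.1% to 66.4% on 5A, 5B and 5D and at 81.1% to 82.8% on 6A, 6B and 6D, and 4 lie on 4B and 7D.

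The 156 genes were spread over all 21 chromosomes, with 44 in the A, 53 in the B and 58 in the D subgenome, and 1 not assigned. Chromosomes of group 6 held 28 of them (17.9%), against 11.95% of all high-confidence genes, and 15 were on 6D. In each other group the share differed from that of all high-confidence genes by less than 3 percentage points. The first and last 20% of the gene order of each chromosome held 67 of the 155 placed genes (43.2%, against 40% of all genes), so the genes were not gathered at chromosome ends.

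Among the chosen genes there were 8 pairs with at most 2 other high-confidence genes between their members, and 0 runs of 3 or more. In 4 pairs the genes were direct neighbours. These counts depend on the condition on *tabri1-a.2bd*, because some genes left out only by it stand beside a chosen gene. On 6D, TraesCS6D03G0018300 and TraesCS6D03G0018400 were left out and directly follow the chosen TraesCS6D03G0018200 in identifier order. TraesCS6D03G0018400 had 36.2, 48.8 and 40.3 TPM in *tabri1-a.1bd*. Runs that include such genes were not counted. The pairs below were picked out after their values were seen, because those of groups 5 and 6 recur at like places on all 3 homoeologous chromosomes.

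On the group 5 chromosomes the pairs are direct neighbours, with the first gene at 65.1% (5B), 65.9% (5A) and 66.4% (5D) along the gene order. The first gene of each pair had like levels in *tabri1-a.1bd*. TraesCS5A03G0890200 (707 bp) had 165, 120.0 and 119 TPM, TraesCS5B03G0937300 (890 bp) had 101, 74.7 and 81.3 TPM, and TraesCS5D03G0852000 (749 bp) had 150.3, 91.1 and 132 TPM. In the 20 other libraries their highest values were 0.970, 0.717 and 0.375 TPM in the same order of genes.

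The second gene of each pair was lower on 5A and 5B and of like level on 5D. TraesCS5A03G0890300 (793 bp) had 59.5, 26.7 and 23.9 TPM in *tabri1-a.1bd*, TraesCS5B03G0937400 (664 bp) had 64.5, 22.9 and 22.4 TPM, and TraesCS5D03G0852100 (837 bp) had 159, 70.0 and 95.2 TPM. In the other libraries 13 reads fell on the 5A gene, 16 on the 5B gene and 0 on the 5D gene. All 6 genes were thus on in each *tabri1-a.1bd* library, and all 6 were highest in replicate 1. Of the 11 tested genes among the 12 that flank these pairs, 3 were called higher in *tabri1-a.1bd* and 4 lower, beside 24.6% higher and 23.7% lower of all high-confidence genes tested. Whether the 3 pairs are homoeologues, and how reads of near-identical copies were divided between them, was not tested.

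On the group 6 chromosomes the first gene of the pair lies 81.1% (6B), 81.3% (6D) and 82.7% (6A) along the gene order. On 6A, TraesCS6A03G0900700 (1207 bp) had 344, 78.1 and 120.8 TPM in *tabri1-a.1bd* and TraesCS6A03G0901500 (813 bp) had 309, 119 and 58.7 TPM. On 6B, TraesCS6B03G1083400 (2224 bp) had 410.0, 95.4 and 143 TPM and TraesCS6B03G1084600 had 456, 119.7 and 123 TPM. These 4 genes were over 2-fold higher in replicate 1 than in either other replicate.

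On 6D, TraesCS6D03G0772500 (2100 bp) had 335, 89.5 and 98.5 TPM in *tabri1-a.1bd*, and the short TraesCS6D03G0772200 (281 bp), which pairs with it, had 41.8, 21.6 and 57.2 TPM. A further gene of the 156 close by, TraesCS6D03G0773900 (925 bp), had 275, 129.9 and 92.0 TPM. TraesCS6A03G0900700, TraesCS6B03G1083400 and TraesCS6D03G0772500 had 9, 33 and 32 reads over the 20 other libraries, and TraesCS6A03G0901500, TraesCS6B03G1084600 and TraesCS6D03G0773900 had 297, 101 and 131. The short TraesCS6D03G0772200 had 1 read, the fewest of these 7 genes. TraesCS6B03G1083400 had no read in *TaBRI1-NS* and was at least 14283-fold above the floor of 3 reads. Of the 9 tested genes among those that flank or lie within the 3 pairs, 7 were called higher in *tabri1-a.1bd* and 0 lower, beside the same shares of 24.6% and 23.7%. These pairs were chosen with their values known, and nothing is read from the small counts.

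The remaining pairs of chosen genes were single. On 7D, TraesCS7D03G1108100 (2559 bp) and TraesCS7D03G1108200 (1459 bp) are direct neighbours and had 16.2, 23.6 and 18.4 TPM and 46.2, 44.8 and 36.1 TPM in *tabri1-a.1bd*. Neither had a read in *TaBRI1-NS*, and both were among the more even genes. On 4B, TraesCS4B03G0128400 and TraesCS4B03G0129300 stand 2 genes apart, with 86.0, 36.5 and 10.2 TPM and 27.0, 12.6 and 11.1 TPM. Pairs of a chosen gene with one left out only by the condition on *tabri1-a.2bd* were not counted. Near the start of 6A, 6B and 6D, TraesCS6A03G0011500, TraesCS6B03G0025200 and TraesCS6D03G0018300 were left out in this way. Each lies close in identifier order to a chosen gene, at 1.45% (6A), 2.49% (6B) and 2.07% (6D) along the gene order.

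Genes next to the 156 were called higher in *tabri1-a.1bd* more often than high-confidence genes at large. Within 2 places on either side there were 593 other high-confidence genes, of which 401 were tested. By limma, with an adjusted p of 0.05 or less as the call, 157 of them (39.2%) were higher in *tabri1-a.1bd* than in *TaBRI1-NS*, against 24.6% of all high-confidence genes tested. Lower levels were called in 69 (17.2%), against 23.7%. The neighbours include genes that met the same limits and were left out only by the condition on *tabri1-a.2bd*. One is TraesCS6D03G0018300, with 36.2, 27.0 and 33.6 TPM in *tabri1-a.1bd*. Such genes are high in *tabri1-a.1bd* by the same limits, and the share without them was not computed. The median log2 change was 0.23 in the neighbours and 0.03 in all high-confidence genes tested.

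The share fell with distance, from 40.5% of the direct neighbours to 33.7% of the genes within 5 places. Of the low-confidence models in between, 51 of 128 tested (39.8%) were higher, against 24.1% of all low-confidence genes tested. These models include 3 next to one of the 156 genes that met the rest of the conditions. These are descriptions over genes that share chromosome regions and libraries, and they carry no test. A low-confidence model can overlap one of the 156 genes, and whether reads were counted by strand is not given in the sources used here.

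The 156 genes were shorter than others. Their median length, recovered from the TPM together with the reads, was 1020.5 bp (170 to 11388 bp). It was 1704 bp over all 62029 high-confidence genes tested and 1392 bp over the 15699 with a *tabri1-a.1bd* mean of at least 10 TPM. Lengths under 1000 bp were found in 48.7% of the 156 genes, 20.8% of the tested genes and 29.2% of those with a mean of at least 10 TPM. Since TPM is a count per length, fewer reads bring a short gene to 10 TPM, but whether this bears on the difference was not tested.

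The remaining question was whether the 156 genes differed among the other genotypes, in contrasts that do not involve *tabri1-a.1bd*. All 156 passed the filter on low values (at least 0.5 TPM in at least 3 libraries), but 65 of them passed it through *tabri1-a.1bd* alone and could hardly be called elsewhere. The counts over 156 are therefore not read against the share of all genes, and each contrast is also given from a fit without the *tabri1-a.1bd* libraries, in which 91 were tested. In *tabri1-a.3bd* against *TaBRI1-NS*, limma called 1 of 91 in that fit, where 6.47% of all genes tested were called. With all libraries it called 0 of 156 (2.3% of all 83495 genes). With all libraries 8 had an unadjusted p under 0.05, of which 3 were higher and 5 lower, and limma voom on the recovered reads also called 0. In *tabri1-bd* against *TaBRI1-NS*, limma called 0 of 91 (0.214% of all genes) and, with all libraries, 0 of 156 (0.126%), with 2 at an unadjusted p under 0.05, both lower, and voom called 0. At levels of about 1 TPM these contrasts could show large differences only.

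The smallest adjusted p in *tabri1-a.3bd* belonged to TraesCS2A03G1151600 (853 bp, 2A). It had 0.632, 1.49, 1.18 and 0.695 TPM in *tabri1-a.3bd*, against 0.107, 0, 0.0899 and 0.265 TPM in *TaBRI1-NS*, and the groups did not overlap. Its log2 change was 1.26 (SE 0.34, limma adjusted p = 0.0528). It passed the threshold without the *tabri1-a.1bd* libraries (limma adjusted p = 0.0385) and without replicate 1 of *tabri1-a.1bd* alone (limma adjusted p = 0.0354). In these fits it was the single call among 91 and 116 of the 156 genes, where 6.47% and 5.86% of all genes were called. In *tabri1-a.1bd* it had 20.04, 21.7 and 14.6 TPM. This gene was singled out after its values were seen.

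In Cadenza against *TaBRI1-NS*, limma called 1 of 91 without the *tabri1-a.1bd* libraries, where 4.37% of all genes were called. With all libraries it called 1 of 156, which was lower in Cadenza, where 2.23% of all genes were called and 0.28% were lower. Unadjusted p were under 0.05 for 5 genes, of which 2 were higher and 3 lower in Cadenza. The gene was TraesCS3B03G0806900 (958 bp, 3B), with 0, 0.581, 0.0524 and 0.286 TPM in Cadenza, against 1.29, 0.66, 1.04 and 0.848 TPM in *TaBRI1-NS*. Its log2 change was -1.05 (SE 0.27, limma adjusted p = 0.0478), and the groups did not overlap. The call was lost in 12 of 16 other settings, over which the adjusted p ranged from 0.0265 to 0.152, and voom called 0 genes. It was kept in 3 further fits, each without 1 *tabri1-a.1bd* library, with limma adjusted p of 0.0208, 0.049 and 0.0465. In *tabri1-a.1bd* the gene had 25.1, 12.04 and 12.3 TPM. All 3 contrasts use the same *TaBRI1-NS* libraries.

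The BR pathway itself gives the setting in *tabri1-a.1bd*. Of 76 genes listed by the study, 68 were tested, and by limma 24 were higher and 12 lower in *tabri1-a.1bd* than in *TaBRI1-NS*, against 24.5% higher and 19.3% lower of all genes tested. The 24 included 14 of 23 BR biosynthesis genes, with all 8 *TaBR6ox1*, all 3 tested *DWF4* and all 3 *CPD* genes. Of the same 23 genes, 4 were called lower, namely *TaDET2-A*, *TaDET2-D*, *TaD2-A* and *TaD2-B*. The 12 lower genes included all 3 of *TaBKI1*, an inhibitor of the receptor in Arabidopsis, and the *BZR1* homoeologues *TaBZR-A1*, *TaBZR-B1* and *TaBZR-D1*. Other listed *BZR* genes went the other way, *TaBZR-D2*, *TaBZR-A3* and *TaBZR-D3* being called higher. Without *tabri1-a.1bd* replicate 1 there were 34 higher genes, and without replicate 2 there were 14. The pathway list was assembled by the authors and is no independent sample of genes.

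*TaDWARF4-4B*, whose enzyme catalyses the first committed hydroxylation of BR synthesis, showed a difference in every replicate, with 55.6, 35.9 and 26.9 TPM in *tabri1-a.1bd* against 1.66, 2.94, 2.53 and 2.11 TPM in *TaBRI1-NS*. Like most of the 156 genes it was highest in replicate 1 and lowest in replicate 3. *TaBZR-B1* was lowest in replicate 1, with 2.45, 6.59 and 6.63 TPM in *tabri1-a.1bd* against 12.5, 10.2, 12.2 and 10.5 TPM in *TaBRI1-NS*. Of the 76 listed genes 16 were under 2 TPM in each of the 5 other genotypes, and 16 reached 10 TPM in all 3 *tabri1-a.1bd* libraries, but 0 did both.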

How the data were processed

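RNA was sequenced from 23 libraries, and the authors used Trimmomatic 0.39 for trimming, STAR 2.7.8a for mapping to the IWGSC RefSeq v2.1 assembly and HTSeq 0.11.3 for counting per gene. The values deposited by the authors are TPM per gene and library, without pooling. The counting options and gene lengths behind them are not given in the sources used here. The members and lists were chosen with earlier results of these data known.

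Levels are TPM as deposited. For contrasts, log2(TPM + 0.5) of all 23 libraries was fitted in 1 limma model (trend and robust eBayes) with a term per genotype, on 83495 of 266760 genes with at least 0.5 TPM in at least 3 libraries, and genes were called at p of 0.05 or less after Benjamini-Hochberg adjustment. Log2 changes are on that scale and understate changes of low genes. Contrasts with *tabri1-a.1bd*, and *tabri1-a.2bd* against *TaBRI1-NS*, were used by the choice of genes and carry no test for them. On simulated data of 83495 genes the fit called 167 of 200 changed and 11 unchanged genes in *tabri1-a.3bd* against *TaBRI1-NS*. The changed genes were drawn from genes of all levels and shifted by a fixed amount. The share called does not carry over to genes as low as those chosen here. 

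Whole reads were recovered from the TPM, because each gene's values in a library come in steps of 1 read (94749 of 94749 genes above 0 in at least 8 libraries, 100%, within 0.0005 reads). Genes above 0 in fewer libraries lie outside this check. They include the chosen genes with no read outside *tabri1-a.1bd*, whose read numbers and floors are less certain. Reads per library ranged from 22618157 to 38468006. Intervals and floors from reads cover counting error only. Replicates were separate pools of seedlings. All columns of the TPM table were used (0 left out). Same-numbered libraries deviated together no more than others (correlations of residuals from -0.13 to 0.11, 1 of 55 over 0.1), so the numbers do not pair libraries.

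Genes were named by a fixed rule: the 12 with the highest minimum in *tabri1-a.1bd*, those in runs of at least 3, the 3 with the largest and the 3 with the smallest spread, the 3 highest elsewhere, the 2 on each side of the limit, and those called among the other genotypes. Genes named outside it are marked, apart from examples of the pathway, of the condition on *tabri1-a.2bd* and of genes with no read. The alternatives were other limits and pseudocounts (0.1 and 1), filters, size factors, the replicate block, voom and leaving out libraries, and fits of the other contrasts without each *tabri1-a.1bd* library were added after seeing the data. No sequences or functional names were matched. R 4.3.3, limma 3.58.1, statmod 1.5.0, Python 3.11.15, numpy 2.4.6, pandas 2.3.3 and matplotlib 3.10.9 were used.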

Additional observations from a re-analysis of the deposited data

Results flagged for a closer look

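Among 65 groups of 4 libraries examined (summed values of the 156 genes, and the 12 genes with the highest minimum in *tabri1-a.1bd*, in the 5 other genotypes), 10 had 1 library far from the other 3. Chance gives about 1 in 20 for continuous values, but this rate does not apply to 5 of the 10, in which the other 3 libraries are at 0 and any trace stands apart. All 10 concern traces of reads outside *tabri1-a.1bd*. Of the 156 genes, 71 had a read in 1 *tabri1-a.3bd* library, the next lowest having 92. In *tabri1-a.3bd*, TraesCS6B03G1084600 had 0.118 TPM in 1 library and 0 in the others, and TraesCS6D03G0773900 had 0.874 TPM in 1 library and at most 0.0544 TPM in the others. In *tabri1-a.2bd*, TraesCS5A03G0890200 had 0.575 TPM in 1 library, the next being 0.0719 TPM, and TraesCS2D03G0229100 had 1.53 TPM, the next being 0.262 TPM. In Cadenza, TraesCS5D03G0852000 had 0.338 TPM and TraesCS1A03G0676500 had 0.402 TPM in 1 library, with 0 in the others. In *TaBRI1-NS*, TraesCS5A03G0890200 had 0.434 TPM and TraesCS6D03G0772500 had 0.511 TPM in 1 library, with 0 in the others, and TraesCS1A03G0676500 had 0.497 TPM, the next being 0.0732 TPM.

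Low-confidence gene models were outside the choice, and 21 of 159846 met the rest of its conditions, which is 0.131 per 1000, against 1.46 per 1000 high-confidence models. Of the 21, 3 stood directly next to one of the 156 genes in identifier order and 18 had none within 5 identifiers. The highest was TraesCS7A03G0202700LC, with 119, 87.8 and 63.7 TPM in *tabri1-a.1bd* and at most 0.326 TPM in the other libraries. TraesCS3A03G0211800LC had 71.8, 35.6 and 39.8 TPM in *tabri1-a.1bd* and no read in the 20 other libraries.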

How the results depend on the processing

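The number of genes chosen was 99 with 0.1 TPM in place of 0.5 TPM in the condition on *tabri1-a.2bd*, 266 with a limit of 4 TPM in the other genotypes, and 382 and 66 with 5 and 20 TPM as the limit in *tabri1-a.1bd*. All 156 were among the 266 and the 382. Leaving out 1 *tabri1-a.1bd* library gave 162 to 231 genes and a mean summed level of 6078 to 10059 TPM. Of the 16 genes in pairs, 8 were direct neighbours. In *tabri1-a.3bd* against *TaBRI1-NS*, 1 gene was called without the *tabri1-a.1bd* libraries, of 91 tested and with 6.47% of all genes called, and 0 to 1 when 1 library was left out. In Cadenza against *TaBRI1-NS*, the single call became 0 with a pseudocount of 1, no filter, size factors, the replicate block or voom, and 0 to 1 when 1 library was left out. The replicate block changed no call of the 156 in *tabri1-a.3bd* or *tabri1-bd*, and in *tabri1-a.1bd* it moved neighbours called higher to 153 and BR pathway genes called lower to 11. The cause was not tested. The share of neighbours called higher lay between 33.2% and 41.5% in 15 alternatives, in which 19.95% to 26.5% of all high-confidence genes tested were called. BR pathway genes called higher numbered 14 to 34 when 1 library was left out. A level under 1 TPM rests on few reads, so differences among the other genotypes were not detectable at this depth unless large.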
